A study of Mus musculus with 6 samples.

Results

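The collagen genes of mouse were examined in C2C12 cells, an established and subcloned line of mouse myoblasts, after transfection with siRNA-MEG3, directed at the imprinted lncRNA Meg3, or with the negative control siRNA-NC. The family was taken as 41 collagen chain genes, and a probe belonged to it where the RefSeq accession of the array design is one of those genes. On the arrays, 40 of the 41 genes had a probe, with 57 probes and 66 spots in all, and Col12a1 had none. Of the 40, 32 were measured, out of 22057 genes measured on the arrays: a gene counted as measured where every array of either group, or of both, carried the scanner software's mark for a signal well above background and both samples of each group had a usable value. The filter passes a gene through the group in which it is brighter, so the 32 are the measured members and not the whole family. Both groups were C2C12 cells in growth medium with 10% serum, transfected at 70 to 80% confluence with siRNA labelled "20 um", a unit given here as labelled. Each group had 3 single-colour Agilent arrays of total RNA, labelled as biological replicates. The sequences of the siRNAs and the time from transfection to lysis are not given in the sources used here, and 1 line of cells limits what the groups stand for.

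Collagens are secreted or membrane proteins in which 3 chains wind into a triple helix. Fibrillar collagens are cut free of their propeptides outside the cell and assemble into the striated fibrils of connective tissue. Type IV collagen forms the sheet-like network of basement membranes, type VI forms beaded filaments around cells, and the remaining types bind to fibrils, form hexagonal networks, anchor epithelia or span the plasma membrane. In muscle, fibroblasts make most of the fibrillar matrix, while the muscle fibre is wrapped in a basement membrane rich in type IV collagen, and cultured myoblasts make several of these collagens themselves.

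Several features of the arrays touch every value that follows. Meg3 itself was not measurable: its 3 probes were well above background in 1 of 9 probe readings with siRNA-NC and in 0 of 9 with siRNA-MEG3, so the arrays do not check the knockdown. The share of spots with that mark was 70.1 to 75.2% with siRNA-NC, then 62.8 to 69.3% with siRNA-MEG3, and no spot was saturated. siRNA-NC arrays 1 and 3 differed by no more than the noise between repeated spots, and siRNA-MEG3 arrays 1 and 3 shared even the scatter of single spots (r = 0.979) and the same slide position, with scan numbers 2 and 3, so that they look like 2 scans of 1 hybridised array. Both pairs were averaged, so that each group holds 2 samples, and where readings of all 3 arrays of a group are given below they stand for those 2 samples. A p-value here covers only the spread between such samples, and some of that spread may be technical. siRNA-MEG3 arrays 1 and 2 also differed little beyond spot noise, so the 2 siRNA-MEG3 samples may be technical repeats. The siRNA-NC arrays shared 1 slide and the siRNA-MEG3 arrays another, and the effects of slide and group cannot be told apart. Dark patches, which are blocks of spots that read low, covered 33.9, 5.95 and 22.7% of siRNA-MEG3 arrays 1 to 3. The patches of siRNA-MEG3 arrays 1 and 3 were joined: a spot in a patch of either array was marked on both (33.9% of spots). The probes of 8 of the 32 measured collagens lay in these joint patches of siRNA-MEG3 arrays 1 and 3, and these genes are named where their values are given.

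Over the family, 1 of the 32 measured collagens fell with siRNA-MEG3, none rose, and 31 did not pass the threshold of 0.05 on the p-value adjusted over all 22057 genes (limma, 2 samples a group). The gene that fell was Col14a1, the chain of the fibril-associated collagen XIV. Among all genes, 0.422% were lower and 0.952% were higher at the same threshold, 1.37% in either direction. By the unadjusted limma p, 10 of the 32 collagens lay under 0.05, beside 18.6% of all genes. The log2 fold change was positive for 21 collagens and negative for 11, beside 48.2% positive among all genes, with a median of 0.20 (1.14-fold) beside -0.02 for all genes. For 14 collagens all 3 siRNA-MEG3 arrays read above all 3 siRNA-NC arrays, for 6 they read below, and for 12 the groups overlapped, beside 25.3% of all genes above and 21.8% below. The 95% interval of the difference included 0 for 22 of the 32. A difference of at least 2-fold in size was found on the higher side for Col10a1, Col5a3, Col8a2 and Col24a1. On the lower side it was found for Col14a1, Col11a2 and Col11a1. The share of all genes with such a difference is not given here, so the list is not read as a trait of the family. With normexp background correction Col10a1 and Col11a2 stood at 1.36 and -0.319. Leaving out single arrays moved the counts of collagens past the threshold. Without siRNA-NC array 2, which leaves 1 siRNA-NC sample, no collagen passed, as for all genes, and the median of the family was 0.0002. Without siRNA-MEG3 array 2, which leaves 1 siRNA-MEG3 sample assumed to vary like the others, 4 were higher and 3 lower, and the median was 0.38, where 1201 of 22655 genes were higher and 1794 lower. Without siRNA-NC array 3 there were 1 higher and 1 lower, and without siRNA-MEG3 array 3 there were 2 lower. Outside the dark patches, 1 was higher (Col8a2) and 2 were lower (Col11a2 and Col14a1), and the median was 0.0667. Calls of Col11a2 in these settings rest on siRNA-MEG3 readings that were all below background. Calls of Col10a1 rest on siRNA-NC readings that were mostly so.

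**Figure D1:**
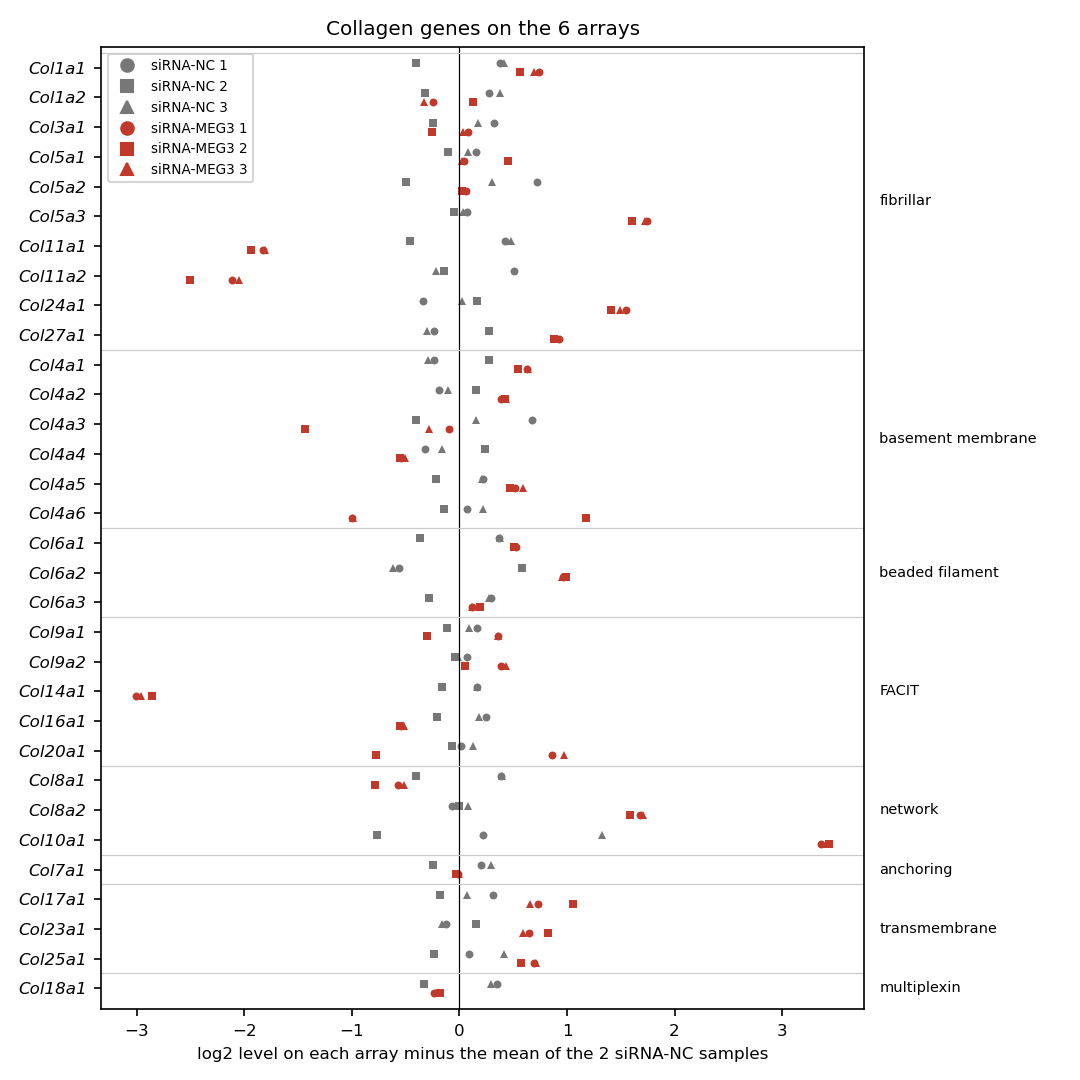
Each row is a measured collagen gene, and each point is its log2 level on 1 of the 6 arrays minus the mean of the 2 siRNA-NC samples, with siRNA-NC in grey, siRNA-MEG3 in red and the assembly class at the right. Col14a1 lay near -3 on all siRNA-MEG3 arrays, Col10a1 lay above 3, and Col4a6 split between siRNA-MEG3 array 2 and arrays 1 and 3.

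The fibrillar class is where the main structural collagens of muscle connective tissue lie, and none of its 10 measured genes of 11 passed the threshold. In this class 6 differences were positive and 4 negative, with a median of 0.14. Signal is given below as a percentage of the array's own 75th percentile, arrays 1 to 3 of each group in order, and a difference as log2 fold change ± SE of siRNA-MEG3 minus siRNA-NC (n = 2 samples a group).

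Neither chain of type I collagen, the most abundant fibril collagen of the body, passed. Col1a1 read 10100, 5860 and 10200% with siRNA-NC, then 12900, 11400 and 12500% with siRNA-MEG3. The siRNA-MEG3 arrays were all higher, but the difference of 0.64 ± 0.34 did not pass (limma adjusted p = 0.411), siRNA-NC array 2 alone read far below its group, and the probe lay in the dark patches. Col1a2, the partner chain, read 12000, 7920 and 12900% and then 8340, 10800 and 7900%, so the groups overlapped (-0.08 ± 0.33, 95% interval -0.98 to 0.82). The difference between the partner chains was not tested. Col3a1, which encodes type III collagen of reticular fibres, read 15300, 10300 and 13800% and then 13000, 10200 and 12500%. These groups also overlapped (-0.10 ± 0.28, 95% interval -0.87 to 0.66), and the signs for Col1a2 and Col3a1 turned with quantile normalization (0.0522 and 0.0152).

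Type V collagen starts the formation of type I fibrils, and its 3 chains gave unlike values. Col5a1 read 3050, 2550 and 2900% with siRNA-NC, then 2830, 3760 and 2780% with siRNA-MEG3, an overlap with a difference of 0.24 ± 0.26. Col5a2 read 677, 290 and 505% and then 428, 416 and 422%, a difference of 0.03 ± 0.40 whose interval ran from -1.06 to 1.12. Col5a3, the less widely expressed chain, read 56.4, 51.8 and 54.6% and then 179, 163 and 178%. The siRNA-MEG3 arrays were all brighter, and the difference of 1.67 ± 0.20 (3.18-fold) just missed the threshold (limma adjusted p = 0.0561). The Col5a3 probe lay in the dark patches of siRNA-MEG3 arrays 1 and 3, and array 2, outside them, gave nearly the same reading. Without siRNA-MEG3 array 2, which leaves 1 sample in that group, the Col5a3 difference was 1.74.

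The chains of type XI collagen, which sets fibril diameter in cartilage and is closely related to type V, were both lower on every siRNA-MEG3 array, and neither passed. Col11a1 read 80.4, 43.9 and 84.3% with siRNA-NC, then 17, 15.7 and 17.1% with siRNA-MEG3. The difference was -1.88 ± 0.37 (limma adjusted p = 0.122), with the probe in the dark patches and array 2 again outside them. Col11a2 read 6.29, 4 and 3.79% and then 1.01, 0.776 and 1.07%, where none of the 3 readings was marked as above background. Its fitted difference was -2.30 ± 0.26 (limma adjusted p = 0.0522), and against the lowest signal called above background on each array it was at least 3.94-fold lower. Its size depended on the background correction: with normexp background correction the difference was -0.319 (limma adjusted p = 0.653). Without siRNA-MEG3 array 2, which leaves 1 sample in that group, the differences were -1.82 for Col11a1 and -2.09 for Col11a2. Col11a2 passed without siRNA-MEG3 array 3 (limma adjusted p = 0.0491). That setting drops 1 of 2 likely scans of the same array, and the siRNA-MEG3 readings left were below background, so it adds no support.

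Col24a1 and Col27a1 encode collagens of developing bone and cartilage, and all siRNA-MEG3 arrays read higher for both. Col24a1 read 23.4, 33.2 and 30.2% and then 86.9, 78.9 and 83.5% (1.47 ± 0.23, limma adjusted p = 0.0825), with the probe in the dark patches of arrays 1 and 3. Leaving out each array put the Col24a1 difference between 1.37 and 1.63. Col27a1, a dim gene, read 2.95, 4.20 and 2.84% and then 6.64, 6.41 and 6.52% (0.90 ± 0.27, limma adjusted p = 0.206). Col2a1, the type II collagen of cartilage, was not well above background on any array.

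**Figure D2:**
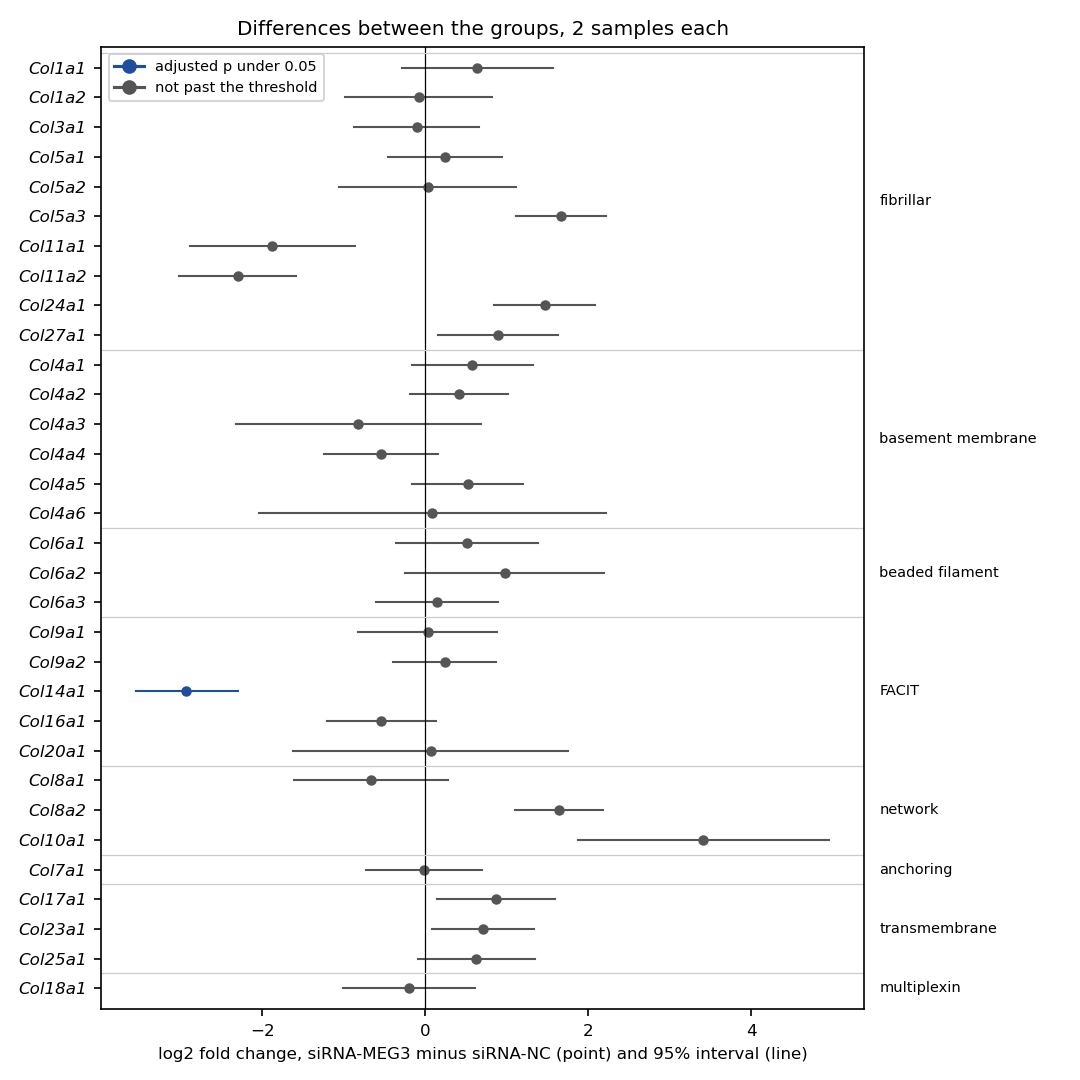
Points are log2 fold changes of siRNA-MEG3 minus siRNA-NC for the 32 measured collagens, lines are 95% intervals from the limma fit, and blue marks an adjusted p under 0.05. Col14a1 alone is blue at -2.93, and 22 of the 32 intervals include 0.

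The basement membrane class was measured in full, and none of its 6 genes passed the threshold (median 0.25, 4 positive and 2 negative). Type IV chains are encoded in pairs that lie head to head on the chromosome and share the DNA between their starts, and the chains form set heterotrimers. Col4a1 and Col4a2, which together make the type IV collagen of nearly every basement membrane, were both higher on every siRNA-MEG3 array. Col4a1, with a probe printed 10 times, read 338, 483 and 328% with siRNA-NC, then 620, 582 and 621% with siRNA-MEG3. Its difference was 0.58 ± 0.27 (1.5-fold, limma adjusted p = 0.354), with spots in the dark patches. Col4a2 read 169, 215 and 179% and then 253, 258 and 260%, a difference of 0.41 ± 0.22 (1.33-fold, limma adjusted p = 0.416). For both, siRNA-NC array 2 lay nearest to the siRNA-MEG3 arrays.

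The windows around the starts of this pair are shown because the genes share them. Each runs from 250 bases before to 50 bases after the RefSeq start on GRCm38.p6, 5′ to 3′ on the gene's own strand: chr8:11312777-11313076 on the minus strand and chr8:11312555-11312854 on the plus strand. Capitals mark the 78 bases that lie in both windows, printed once on each strand.
Col4a1: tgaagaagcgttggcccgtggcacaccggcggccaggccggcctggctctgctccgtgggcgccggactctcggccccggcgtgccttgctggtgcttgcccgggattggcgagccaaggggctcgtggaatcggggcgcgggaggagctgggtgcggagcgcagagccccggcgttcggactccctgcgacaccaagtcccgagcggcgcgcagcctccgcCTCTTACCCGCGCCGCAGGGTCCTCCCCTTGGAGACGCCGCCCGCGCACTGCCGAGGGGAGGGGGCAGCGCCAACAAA
Col4a2: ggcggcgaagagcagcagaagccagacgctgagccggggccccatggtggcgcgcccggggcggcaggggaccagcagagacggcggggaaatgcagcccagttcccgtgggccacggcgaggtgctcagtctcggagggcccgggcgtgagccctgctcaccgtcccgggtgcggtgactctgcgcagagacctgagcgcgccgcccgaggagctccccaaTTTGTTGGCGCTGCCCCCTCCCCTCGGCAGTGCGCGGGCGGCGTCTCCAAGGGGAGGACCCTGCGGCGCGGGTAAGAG
The shared stretch is the last 78 bases of either window and takes in both annotated starts.

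Col4a3 and Col4a4, the chains of the kidney and lung basement membranes, were dim, with negative differences. Col4a3 read 2.60, 1.23 and 1.80% with siRNA-NC, then 1.52, 0.601 and 1.34% with siRNA-MEG3, where no array was well above background. The difference of -0.82 ± 0.55 came with overlapping arrays and a 95% interval from -2.32 to 0.68, and turned to 0.127 with normexp background correction. Col4a4 read 6.48, 9.55 and 7.23% and then 5.54, 5.53 and 5.67% (-0.54 ± 0.26, limma adjusted p = 0.365). Its second probe gave 0.18 ± 0.24, so the probes disagreed in sign.

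Col4a5 and Col4a6 form the pair on the X chromosome. Col4a5 read 517, 380 and 514% and then 638, 615 and 667%, higher on every siRNA-MEG3 array at 0.52 ± 0.25 (limma adjusted p = 0.369), with the probe in the dark patches of arrays 1 and 3. Col4a6 read 214, 185 and 237% with siRNA-NC but 102, 461 and 103% with siRNA-MEG3. Arrays 1 and 3 lay below every siRNA-NC array and array 2 above, and the probe sat in the joint dark patches of arrays 1 and 3 but not in those of array 2. The fitted difference of 0.09 ± 0.78 therefore averages readings of opposite sign, and without siRNA-MEG3 array 2 it was -0.998. The second Col4a6 probe, in the patch of array 2 instead, read higher on all 3 siRNA-MEG3 arrays (0.80 ± 0.32, limma adjusted p = 0.302 over all probes).

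**Figure D3:**
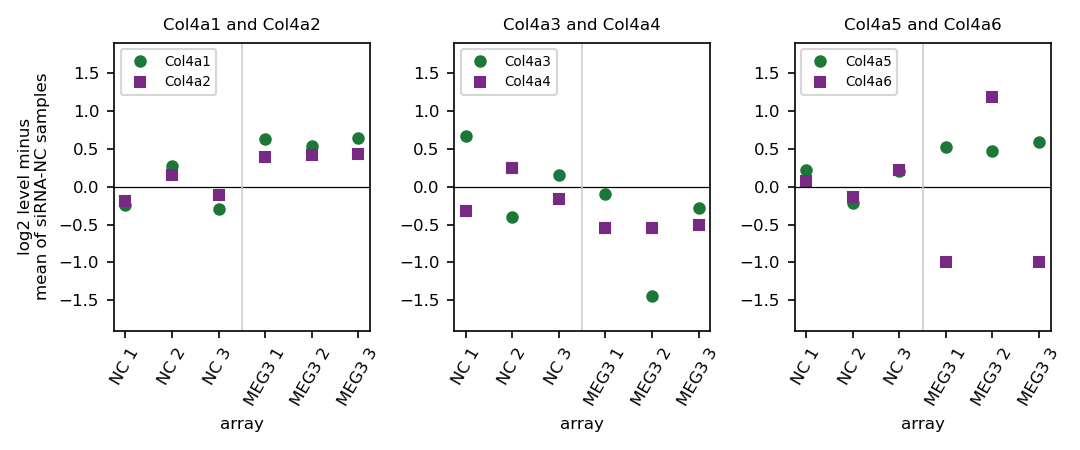
The 3 panels show the type IV gene pairs, with the log2 level on each array minus the mean of the 2 siRNA-NC samples on the vertical axis and the 6 arrays on the horizontal axis. Col4a1 and Col4a2 lie above 0 on all siRNA-MEG3 arrays, Col4a4 lies below, and Col4a6 lies near -1 on arrays 1 and 3 and above 1 on array 2.

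Type VI collagen is built from the products of Col6a1, Col6a2 and Col6a3, makes beaded filaments in the niche of muscle stem cells, and causes congenital muscular dystrophy when mutated. All 3 differences were positive (median 0.51) and none passed. Col6a1 read 6750, 4060 and 6790% with siRNA-NC, then 7560, 7440 and 7440% with siRNA-MEG3 (0.51 ± 0.32, limma adjusted p = 0.484). Col6a2 read 101, 222 and 96.9% and then 289, 295 and 287% (0.98 ± 0.45, 1.97-fold, limma adjusted p = 0.349). Every siRNA-MEG3 array was higher for both genes. siRNA-NC array 2 read lowest of its group for Col6a1 and highest for Col6a2. Col6a3 read 4090, 2770 and 4060% and then 3640, 3840 and 3640%, an overlap with a difference of 0.15 ± 0.28 (-0.125 without siRNA-NC array 2).

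Fibril-associated collagens with interrupted helices (FACIT) do not build fibrils but sit on the surface of fibrils made by other collagens. Of the 9 such genes, 5 were measured and 1 fell (median 0.03). Col14a1, whose product binds type I fibrils in tendon, skin and the connective tissue of muscle, read 152, 121 and 151% with siRNA-NC, then 16.9, 18.6 and 17.4% with siRNA-MEG3. The groups stood far apart, every array was well above background, and the probe lay outside the dark patches. The log2 level was 0.44 ± 0.23 (SD, n = 2 samples) with siRNA-NC and -2.49 ± 0.09 with siRNA-MEG3. It fell by 2.93 ± 0.23 on the log2 scale, 7.60-fold (95% interval -3.55 to -2.30, limma adjusted p = 0.0292, lower in both siRNA-MEG3 samples). In bulk RNA, fewer cells that make a transcript and less of it in each cell cannot be told apart. A second Col14a1 probe, dimmer, was also lower on every array, by less: -1.25 ± 0.20 (limma adjusted p = 0.0937 over all probes). The call was lost with no filter on dim probes (limma adjusted p = 0.0775) and with the replicate number as a block over the 4 samples (0.0527). It was also lost without siRNA-NC array 2 (-3.09), which leaves 1 siRNA-NC sample. The call was kept in 18 of 21 alternatives, and over all 21 the differences ran from -3.09 to -2.09. These alternatives are not independent: some count 1 sample more than once, and others drop 1 of 2 averaged arrays. Their number is therefore no measure of support.

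The other fibril-associated collagens did not pass. Col16a1 read 690, 502 and 660% and then 400, 399 and 407%, lower on every siRNA-MEG3 array (-0.54 ± 0.24, limma adjusted p = 0.344), with a second probe at -0.89 ± 0.29. Col9a1 and Col9a2, chains of the cartilage collagen IX, read between 4.36 and 5.29% with siRNA-NC, then between 3.85 and 6.16% with siRNA-MEG3 (0.03 ± 0.31 and 0.24 ± 0.23), and the groups overlapped for both. Col20a1 read 2.35, 2.23 and 2.56% and then 4.23, 1.36 and 4.58%, with siRNA-MEG3 array 2 the lowest of all 6 and the others the highest (0.07 ± 0.62). It was 0.913 without siRNA-MEG3 array 2. Col19a1 and Col22a1 were not well above background on any array, and Col9a3 was so on 1 siRNA-MEG3 array. Col22a1 is known for marking the junction of muscle and tendon.

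**Figure D4:**
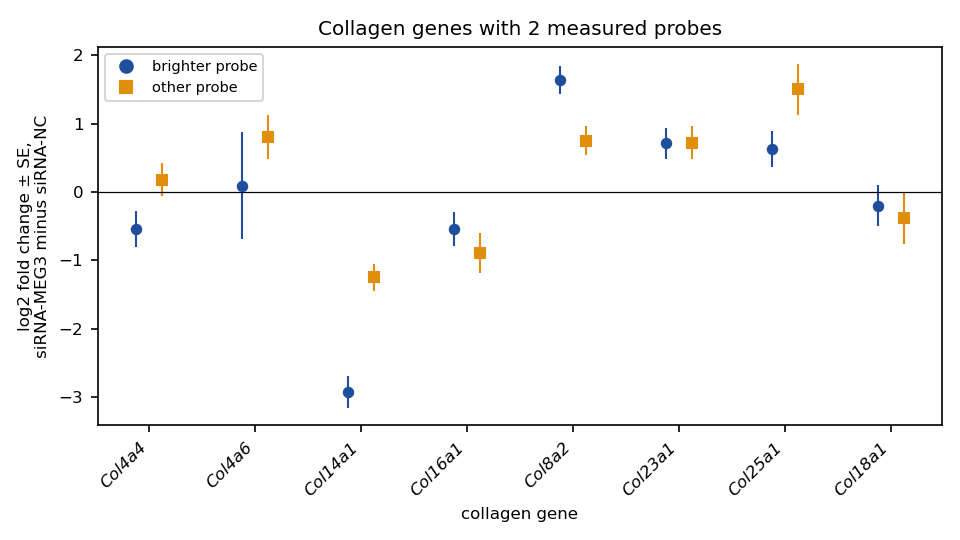
For the 8 collagens with a pair of usable probes, the brighter probe (circle) and the other (square) are shown as log2 fold change of siRNA-MEG3 minus siRNA-NC, with lines of 1 SE from the limma fit over probes. Both probes of Col14a1 lie below 0, at -2.93 and -1.25, and those of Col4a4 lie on either side of 0.

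The network-forming class had 3 measured genes, and none passed. Col10a1, the collagen of hypertrophic cartilage, read 0.605, 0.304 and 1.30% with siRNA-NC, then 5.32, 5.63 and 5.55% with siRNA-MEG3. The mark for signal above background was present on 1 of the siRNA-NC arrays and on every siRNA-MEG3 array. The fitted difference of 3.41 ± 0.57 did not pass (limma adjusted p = 0.0932). Its size is uncertain, since most siRNA-NC readings behind it were not marked as above background, and with normexp background correction it was 1.36, under the 1.59 of Col5a3 in the same setting. Without siRNA-NC array 3, the brightest of the siRNA-NC readings, Col10a1 passed (3.69, limma adjusted p = 0.0497). That call sets siRNA-MEG3 against readings at or below background and adds no support. Leaving out each array put the Col10a1 difference between 2.64 and 3.69. Col8a2, a chain of the collagen of Descemet's membrane in the cornea, read 16.8, 17.7 and 18.7% and then 56.7, 53.1 and 57.8%. All arrays of the groups were well apart, outside the dark patches (1.64 ± 0.20, 3.11-fold, limma adjusted p = 0.0557), and a second probe gave 0.75 ± 0.21. It passed in 8 of 21 alternatives, which are not independent, and leaving out each array put its difference between 1.6 and 1.69. Its partner chain went the other way: Col8a1 read 2070, 1200 and 2090% and then 1060, 913 and 1100% (-0.67 ± 0.35, limma adjusted p = 0.399). The difference between the partner chains was not tested.

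Collagens that span the plasma membrane were all higher on every siRNA-MEG3 array, by 0.63 to 0.87, and none passed. Col25a1, made by muscle and needed for motor axons to reach it, read 6.08, 4.82 and 7.60% with siRNA-NC, then 9.23, 8.47 and 9.32% with siRNA-MEG3 (0.63 ± 0.26, limma adjusted p = 0.312). Its second probe was well above background on the siRNA-MEG3 arrays only, at 1.5 ± 0.37. Col23a1 read 11.1, 13.5 and 10.9% and then 19.1, 21.4 and 18.3% (0.71 ± 0.23, limma adjusted p = 0.226), with the probe in the dark patches, and its second probe gave 0.72 ± 0.24. Col17a1, a hemidesmosome collagen of epithelia, read 2.54, 1.81 and 2.14% and then 3.39, 4.27 and 3.24% (0.87 ± 0.26, limma adjusted p = 0.208). Col13a1, which acts at the neuromuscular junction, was not well above background on any array.

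Of the remaining collagens, Col7a1, which forms the anchoring fibrils of skin, read 14.8, 10.8 and 15.8% and then 12.8, 12.6 and 12.9% (-0.01 ± 0.26, 95% interval -0.72 to 0.70). Col18a1, the source of endostatin, read 669, 418 and 640% and then 443, 463 and 450% (-0.20 ± 0.30, 95% interval -1.01 to 0.61), with a second probe at -0.38 ± 0.38. The groups overlapped for both. Its relative Col15a1 was well above background on 2 siRNA-NC arrays, where it read 2.51, 0.776 and 2.13%, and on no siRNA-MEG3 array, at 0.591, 0.692 and 0.587%; it was not tested. Col26a1 was above background on 1 siRNA-NC array and Col28a1 on none.

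**Figure D5:**
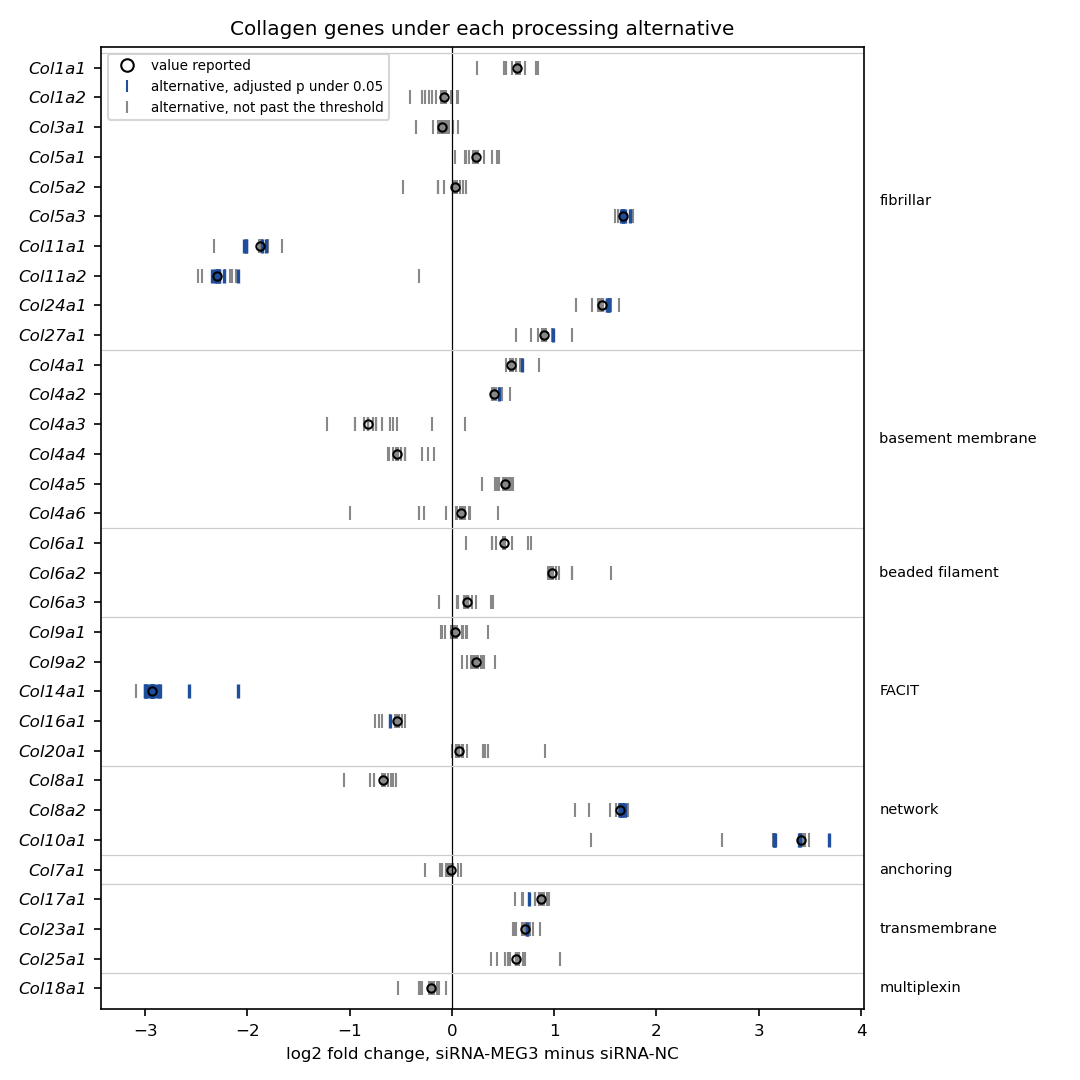
Circles are the log2 fold changes reported for the 32 measured collagens, and ticks are the values under each processing alternative, blue where the limma adjusted p was under 0.05. The ticks of Col14a1 run from -3.09 to -2.09, and those of Col11a2 and Col10a1 reach -0.319 and 1.36 at their smallest.

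The promoter windows of the collagens with a difference of at least 2-fold were read for the E-box CANNTG, the general motif of basic helix-loop-helix factors such as those of the myogenic family. RefSeq gave 35 windows of 300 bases for 32 of the 41 genes, and 6 of the 7 genes had one. The windows of Col5a3, Col24a1 and Col11a2 hold 1, 3 and 2 matches, shown here in capitals, and those of Col10a1, Col8a2 and Col11a1 hold none. They lie at chr9:20815018-20815317 on the minus strand, chr3:145292222-145292521 on the plus strand and chr17:34038888-34039187 on the plus strand of GRCm38.p6.
Col5a3: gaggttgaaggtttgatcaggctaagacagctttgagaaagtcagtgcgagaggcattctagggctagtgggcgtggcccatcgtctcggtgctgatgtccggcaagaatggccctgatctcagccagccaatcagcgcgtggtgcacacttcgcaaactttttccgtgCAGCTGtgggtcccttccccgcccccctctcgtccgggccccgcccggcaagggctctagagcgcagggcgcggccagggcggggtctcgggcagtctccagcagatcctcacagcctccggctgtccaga
Col24a1: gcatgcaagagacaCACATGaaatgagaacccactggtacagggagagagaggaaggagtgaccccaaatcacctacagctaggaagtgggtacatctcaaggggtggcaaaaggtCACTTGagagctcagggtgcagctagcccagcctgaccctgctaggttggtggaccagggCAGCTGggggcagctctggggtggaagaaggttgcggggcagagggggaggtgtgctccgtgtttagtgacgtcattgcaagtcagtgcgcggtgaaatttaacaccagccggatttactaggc
Col11a2: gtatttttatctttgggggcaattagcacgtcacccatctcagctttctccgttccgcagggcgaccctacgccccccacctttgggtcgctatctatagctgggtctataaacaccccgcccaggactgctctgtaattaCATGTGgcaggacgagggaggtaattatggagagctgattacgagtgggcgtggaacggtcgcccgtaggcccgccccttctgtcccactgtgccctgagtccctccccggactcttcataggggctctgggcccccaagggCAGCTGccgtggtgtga
Each of these windows includes 1 CAGCTG, one form of CANNTG; both patterns read the same on either strand. Over all collagen windows, 18 of 35 held CANNTG and 6 of 35 held CAGCTG, beside 72.3% and 16.3% of the 32851 RefSeq windows of the same length. The CCAAT box (CCAAT, either strand) was in 12 of 35 beside 37.4%, the GC box (GGGCGG, either strand) in 20 of 35 beside 35.7%, and the TATA box (TATAAA, either strand) in 5 of 35 beside 13.6%. A match here describes letters in the window.

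The proteins that fold, export, cut, cross-link and bind collagens were followed through 81 genes, of which 71 were measured. None passed in either direction, 31 differences were positive and 40 negative (median -0.07) beside 48.2% positive among all genes, and 17 had an unadjusted limma p under 0.05 beside 18.6% of all genes. The genes named are the 3 of highest signal in each group, with the gene of smallest p in that group, which was picked after its value was seen. Among the genes named, P4hb, Serpinh1, Sec31a, Hspg2, Lamb3, Itgb1, Ddr1, Itga11 and Itga1 had probes in the dark patches of siRNA-MEG3 arrays 1 and 3. Sec31a, Bmp1, Nid1 and Itgb1 each had another usable probe with a difference of the other sign.

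Modification and folding in the endoplasmic reticulum was followed in 18 measured genes (median -0.05). Ppib, a prolyl isomerase, stood at 0.24 and P4hb, the shared subunit of prolyl hydroxylase, at -0.17. Serpinh1, the collagen chaperone HSP47, was lower on every siRNA-MEG3 array at -0.78 (limma adjusted p = 0.293). Its probe lay in the dark patches of siRNA-MEG3 arrays 1 and 3, which read 2240 and 2330%. Array 2, outside them, read 3270%, beside 4010 to 5600% with siRNA-NC. Crtap, a partner of prolyl 3-hydroxylase, was higher on every array at 0.76 ± 0.20 (limma adjusted p = 0.173). For export of procollagen in large transport carriers, the 9 measured genes had a median of -0.15. Among them Sar1a and Sec31a of the COPII coat stood at -0.25 and -0.15, and Creb3l1, a transcription factor for collagen secretion, at 0.40. Sec23a, another coat protein, stood at -0.50 (limma adjusted p = 0.293).

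Propeptide removal and cross-linking had 11 measured genes (median -0.24). Pcolce, an enhancer of C-propeptide cleavage, stood at -0.16, Bmp1, the protease it enhances, at 0.23, and Lox, the lysyl oxidase that cross-links fibrils, at 0.18. The related Pcolce2 was lower on every array at -0.81 (limma adjusted p = 0.161). Among 10 measured fibril-associated proteoglycans and glycoproteins (median -0.34), 8 were negative. Fn1 and Sparc, which encode fibronectin and osteonectin, stood at -0.21 and -0.14. A second, dimmer Sparc probe was lower on every siRNA-MEG3 array at -1.21 ± 0.30 (limma adjusted p = 0.166 over all probes). The small leucine-rich proteoglycans Ogn and Aspn were lower on every siRNA-MEG3 array at -0.70 (limma adjusted p = 0.250) and -0.92 (0.157).

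Partners of type IV collagen in the basement membrane had 16 measured genes (median 0.04). Nid1, which links laminin to type IV collagen, stood at -0.02, Lamb1 at 0.02 and Hspg2, the proteoglycan perlecan, at -0.07. Lamb3, a laminin chain best known from epithelia, was higher on every array at 1.62 ± 0.36 (limma adjusted p = 0.146). Of the 7 measured collagen receptors (median 0.14), the integrin subunit Itgb1 stood at 0.47 and the tyrosine kinase receptor Ddr1 at -0.18. A second Itgb1 probe gave -0.42 ± 0.67. The alpha subunits of collagen-binding integrins went both ways: Itga11 was higher on every array at 1.31 ± 0.41 (limma adjusted p = 0.216) and Itga1 lower at -1.02 (limma adjusted p = 0.149). Itga1 was well above background on 1 siRNA-MEG3 array.

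Markers of muscle differentiation rose with siRNA-MEG3. Summed as a percentage of the 75th percentile, the 10 markers of terminal differentiation, all with a probe, read 116 to 142 with siRNA-NC and 4390 to 4640 with siRNA-MEG3, and 7 of the 9 measured rose (Myog by 3.39 and Myh3 by 6.97 on the log2 scale). The part of this shift in the collagen values was not tested. None of 9 myoblast markers passed, with 6 positive and 3 negative differences. Their sum was 5450 to 6260 and then 9130 to 9180, and much of that rise was Chrna1 (1140 to 1320 and 3060 to 3180). Myf5 stood at -2.95 (limma adjusted p = 0.0703), Pax7 at -0.37 and Des at -0.30. Myod1, Cdh15, Chrna1 and Itga7 stood at 2.21, 1.33, 1.32 and 0.74, each higher on every siRNA-MEG3 array. Vcam1 and Ncam1 stood at 0.23 and 0.21. Fibroblast markers, 7 genes, summed to 2950 to 3250 with siRNA-NC and 2720 to 2780 with siRNA-MEG3. Most of that sum was Ly6a (-0.10), Dpt was above background on no array, and no marker passed. Of the 6 measured, 4 read lower on every siRNA-MEG3 array, beside 21.8% of all genes. They were Ly6a, Pi16 at -1.75, Clec3b at -1.67 and Pdgfra at -0.74, the last 3 with probes in dark patches. Clec3b was well above background on 1 siRNA-MEG3 array. Dpep1 read higher on every siRNA-MEG3 array at 0.44, and Thy1 overlapped between the groups at 0.30. These values stand beside the fall of Col14a1, and their part in it was not tested. Chondrocyte markers, beside which Col10a1, Col11a1 and Col11a2 may be read, summed to 98.4 to 119 and 107 to 108 over 7 genes, with Comp and Matn1 above background on no array. Osteoblast markers summed to 59.0 to 91.0 and 99.7 to 110 over 6 genes, most of it Phex (49.1 to 79.8 and 86.4 to 89.2). Adipocyte markers summed to 467 to 519 and 1250 to 1300 over 7. Most of the rise in that sum was that of Lpl (291 to 336 and 1070 to 1110). Cidec, Fabp4 and Pparg stood at 0.92, 0.60 and 0.29, and Adipoq, Plin1 and Cebpa at -1.16, -1.22 and -0.48. Adipoq was well above background on no siRNA-MEG3 array and Plin1 on 1. No marker of the chondrocyte, osteoblast and adipocyte lists passed. Endothelial, blood and epithelial markers stayed between 31.0 and 125 in both groups, with 2, 2 and 3 of their genes above background on no array.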

How the data were processed

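RNA of C2C12 cells was read as 6 single-colour Agilent arrays, labelled as biological replicates. Per the file headers, the deposited scanner files come from Agilent Feature Extraction 11.0.1.1, which gives for each spot a processed signal intensity, background-subtracted within its array, with raw and local background intensity and quality marks. The authors' deposited table of the series holds log2 values of 30732 probes. Its columns all have a median of 8.11 and follow the log2 processed signal (r from 0.9991 to 0.9997); the scaling between arrays behind it is unknown, and it served as an alternative.

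Spots marked as outliers were left out, spots of a probe averaged, and log2 processed signal was taken relative to the array's 75th percentile over 39429 probes, 27234 of them named through RefSeq accessions (GRCm38.p6). The brightest kept probe stood for a gene. The scanner marks of signal over background stand in for depth, and the number of samples limits the precision. Arrays 1 and 3 of each group were averaged. siRNA-MEG3 arrays 1 and 2 also lay close together (ratio of variance between probes to that between spots 1.43, against 172.8 for siRNA-NC arrays 1 and 2) but were kept apart. The same ratio was 2.02 for siRNA-MEG3 arrays 1 and 3, so by it arrays 1 and 2 were no more distinct than the averaged pair. The 2 siRNA-MEG3 samples may be technical repeats, which the SE and p-values do not allow for. The group comparison used limma 3.58.1 under R 4.3.3 (2-sided, group as the only term, Benjamini-Hochberg over 22057 genes, 2 residual and 2.20 prior degrees of freedom), and the fit was tested on simulated data. A gene below background on a whole group has a bound, the other group's mean over the lowest signal above background. The alternatives were other ways of counting arrays, filters, background correction, scaling, probe choice, dark patches (blocks of 30 by 17 spots with over 5% of spots more than 4-fold below siRNA-NC) and leaving out each array. Every measured collagen is named. Of each list of partner genes, genes past the threshold and the 3 of highest mean signal are named; any other was picked with its value in view. The members and lists were chosen with earlier results of these data known.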

Additional observations from a re-analysis of the deposited data

How the results depend on the processing

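Slide and group coincide, no scan number holds both groups, 2 samples a group give few degrees of freedom, and signal over background limits the dimmest collagens, such as Col4a3, Col10a1, Col11a2 and Col20a1. Deviations from the group means of same-numbered arrays correlated at -0.035, -0.043 and -0.033. Since arrays 1 and 3 of each group count as 1 sample, these values repeat a single contrast (r = -0.042 over the samples). They cannot decide whether the replicate numbers pair the arrays. With the replicate number as a block, the 4 samples gave 0 higher and 0 lower collagens and the 6 arrays as 6 samples 5 higher and 3 lower, with 6 higher and 6 lower partner genes. Without the block, 6 samples gave 9 and 4 collagens and 11 and 11 partner genes. With 5 samples (siRNA-NC arrays kept apart) there were 4 and 3 collagens, and 1 and 4 partner genes. With siRNA-MEG3 as 1 sample, which leaves no spread within that group, the collagen median was 0.233. No filter on dim probes gave 0 lower collagens, where all genes had 0 calls too. Requiring signal on all 6 arrays gave 2 higher, quantile normalization 1 higher, centring on probes of intensity at least 30 gave 2 lower, and leaving out dark patches 1 higher and 2 lower. Leaving out each array gave 0 to 4 higher and 0 to 3 lower collagens, 0 to 1 and 0 to 3 partner genes, and a collagen median of 0.0002 to 0.3826. Calls over all genes also moved in some of these settings, from 210 higher and 93 lower to 3114 and 2587 with 6 samples. They were 1422 and 1268 with 6 samples and the block, and 966 and 922 with 5 samples. With 4 samples and the block they were 124 and 28. They moved less with signal on all 6 arrays (218 and 125), quantile normalization (254 and 125) and centring (235 and 122). The same held outside dark patches (233 and 145), without siRNA-NC array 3 (191 and 85) and without siRNA-MEG3 array 3 (212 and 90). Whether any of these counts is particular to collagens was not tested. Col14a1 had the same sign in all 21 alternatives. Genes that changed sign had no call in the 4-sample fit, and the cause was not tested. With 6 samples, with or without the block, Col5a2 stood at -0.133, Col4a6 at -0.321, Lamb1 at -0.156 and Emid1 at -0.0719. With 5 samples Col5a2 stood at -0.138, Col9a1 at -0.0127, Lamb1 at -0.131 and Emid1 at -0.109; with siRNA-MEG3 as 1 sample Col4a6 stood at -0.273 and Lamb1 at -0.0027. With the 75th percentile over clean spots, an alternative added after seeing the data, Col7a1 stood at 0.0636, Hspg2 at 0.0075 and Nid1 at 0.0525. The authors' values gave Col1a2 0.0546, Col3a1 0.0091, Col9a1 -0.106, Hspg2 0.0657, Nid1 0.184, Pcolce 0.0098 and Emid1 -0.015. Quantile normalization gave Col1a2 0.0522, Col3a1 0.0152, Col9a1 -0.0676, Hspg2 0.0535, Nid1 0.171 and Pcolce 0.0067. Leaving out dark patches gave Sec31a 0.147, the mean of kept probes Nid1 0.204 and Sec31a 0.0009, and normexp Col4a3 0.127 and Col7a1 0.0926. Leaving out each array put Col3a1 between -0.347 and 0.0574, Col4a6 between -0.998 and 0.125, Col5a2 between -0.476 and 0.136, Col6a3 between -0.125 and 0.156, Col7a1 between -0.264 and 0.0091, Col9a1 between -0.0939 and 0.356, Lamb1 between -0.438 and 0.0335, Nid1 between -0.242 and 0.0026, P4hb between -0.25 and 0.226, Bmp1 between -0.232 and 0.251 and Emid1 between -0.432 and 0.164.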

Other observations

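Collagen-like genes outside the 41 were looked up after the collagen values had been seen. Of 7 such genes, 3 were measured. Ccbe1, a secreted protein with collagen repeats that takes part in lymphatic growth, read 22.4, 18.9 and 20.8% of the 75th percentile on the siRNA-NC arrays, then 90.5, 107 and 90.1% on the others. It rose by 2.29 ± 0.22 on the log2 scale (4.88-fold, limma adjusted p = 0.0419, n = 2 samples a group, higher in both siRNA-MEG3 samples). The call was kept in 17 of 21 alternatives, which are not independent. It was lost with no filter on dim probes (limma adjusted p = 0.112) and with the replicate number as a block over the 4 samples (0.0773). The mean of its 2 kept probes also lost it (1.32, limma adjusted p = 0.0817), as did leaving out siRNA-NC array 2, which leaves 1 siRNA-NC sample. Colq, the collagen tail that anchors acetylcholinesterase at the neuromuscular junction, was higher on every siRNA-MEG3 array at 1.37 ± 0.26 without passing (limma adjusted p = 0.119). Its probe lay in the dark patch of siRNA-MEG3 array 2, and leaving out each array put its difference between 1.13 and 1.47. Emid1 overlapped between the groups (0.05 ± 0.39). Col6a4, Col6a5, Col6a6 and Gldn were not well above background on all arrays of either group.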
